A study of Mus musculus with 43 samples.

Results

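The retina passes light signals through synapses that use glutamate, GABA and glycine, and the subunits of their receptors decide which cells answer and how fast. Receptor subunits named here are the 37 genes of a list of Gria, Grin, Grik, Grm, Gabra, Gabrb, Gabrg, Gabrr, Gabbr, Glra and Glrb symbols, found by symbol among the 54532 genes of the deposited count table. The rule uses symbols and no measured value, and the list does not hold every subunit of these receptors. It holds 4 AMPA, 6 NMDA, 5 kainate and 6 metabotropic glutamate receptor genes, 7 GABA-A, 2 GABA-rho and 2 GABA-B receptor genes, and 5 glycine receptor genes. All 37 passed the filter on low counts, with 18197 genes in all.

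As background, AMPA, kainate and NMDA receptors are cation channels opened by glutamate, while metabotropic glutamate receptors act through G proteins. GABA-A, GABA-rho and glycine receptors are chloride channels, and GABA-B receptors act through G proteins as a pair of subunits. Photoreceptors and bipolar cells release glutamate, amacrine cells release GABA or glycine, and GABA-rho receptors are known from the axon terminals of bipolar cells. Muller glia clear the transmitters from the synapse.

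Retinas came from C57BL/6J mice of both sexes, 9 weeks old at laser treatment, all with laser-induced choroidal neovascularization (CNV), in which laser burns through Bruch's membrane make choroidal vessels grow. The SCFA groups drank water with sodium acetate (67.5 mM), sodium propionate (40 mM) and sodium butyrate (25 mM), and the control groups drank water without them. The masses per litre in the labels do not match these molar doses for propionate and butyrate, so these doses are uncertain. Retinas were taken 3, 7 or 14 days after the laser (days post-laser, dpl), and no group without laser treatment was analysed here. Each library pooled 2 retinas from 2 mice, so that the spread between libraries is that of pools and not of single animals, and whole-retina RNA cannot tell a smaller number of cells from less RNA per cell. The groups held 4 control and 3 SCFA libraries in males at 3 dpl, 3 and 5 in males at 7 dpl, 3 and 3 in males at 14 dpl, 3 and 5 in females at 3 dpl, 3 and 4 in females at 7 dpl, and 3 and 4 in females at 14 dpl.

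The 43 libraries held 14826957 to 21507527 counts each, and 3 counts, the floor used here, were worth 0.134 to 0.246 CPM, the count divided by the TMM-scaled library size. The table lists 31 libraries in a first run of columns and 12 in a second run. Controls of the second run were only in males at 3 dpl and females at 14 dpl. In males at 7 dpl and females at 3 and 7 dpl, all controls were of the first run. SCFA libraries of these groups were of both runs, and males at 14 dpl had no library of the second run. This place in the table was a term of every test unless a fit without it is named. The term gives each gene 1 shift shared by all groups. The markers of rod photoreceptors, the main cell of the retina, were detected in every group, at a summed 48505 to 100612 CPM. Some libraries stood apart. Male SCFA replicates 1 and 3 at 7 dpl had 13.8% and 14.8% of their counts in mitochondrial mRNA, against 5.59% to 6.14% in the 3 controls of that day. Among males at 7 dpl, summed myelin markers were 256 and 875 CPM in control replicates 2 and 3, against 35.4 CPM in control replicate 1. They were 657 CPM in SCFA replicate 2, and 39.8, 81.9, 30.6 and 33.4 CPM in SCFA replicates 1, 3, 4 and 5. Female SCFA replicate 2 at 3 dpl held 224374 CPM of lens transcripts, against 13.8 to 636 in the other 4 libraries of its group. The library labelled female control replicate 2 at 7 dpl expressed both Xist and a Y-linked transcript, so its sex label is uncertain.

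The GABA-rho genes had the highest levels of the 37 on the scale used here. Between genes, levels were compared per length, as CPM per kilobase of merged exons, with the median over the 43 libraries. The order depends on the length used, since per kilobase of the longest transcript Gabbr1 (23.1) exceeded Gabrr2 (22.2), and Grik1 stood at 18.1 and Grin1 at 11.7. Per kilobase of merged exons, Gabrr1 stood at 29.4 and Gabrr2 at 20.3, and these 2 genes made up 29.3% of the summed level of the 37. The kainate class followed with 15.5%, nearly all of it from Grik5 at 14.6, a subunit that forms channels only with partners, and Grik1 at 9.83, a subunit of OFF bipolar cells. Grik2 at 1.17, Grik3 at 0.454 and Grik4 at 0.360 were far lower.

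The GABA-B pair made up 12.4%, with Gabbr1, the GABA-binding subunit, at 15.6 and Gabbr2, its signalling partner, at 5.42. Among glycine receptor genes (11.8%), Glrb, the subunit that anchors the channel to gephyrin, stood at 13.5. The alpha subunits that pair with it were Glra2 at 3.61, Glra3 at 2.07, Glra4 at 0.458 and Glra1 at 0.40. The AMPA genes (11.7%) lay closer together, with Gria4 at 7.56, Gria1 at 5.12, Gria2 at 4.56 and Gria3 at 2.71.

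Gabra3, at 8.14, held most of the GABA-A class (8.06%), whose other members were Gabra2 at 1.96, Gabra4 at 1.13, Gabrg1 at 0.878, Gabrg3 at 0.760, Gabrb1 at 0.481 and Gabrb2 at 0.359. Metabotropic glutamate receptor genes (5.94%) ran from Grm2 at 2.89, Grm8 at 2.51 and Grm7 at 2.17 through Grm5 at 1.24 and Grm4 at 1.16 to Grm3 at 0.145, the lowest of the 37. In the NMDA class (5.35%), Grin1, the subunit every NMDA receptor needs, stood at 5.15 and Grin2d at 2.33. Grin2a at 0.525, Grin2c at 0.398, Grin3a at 0.390 and Grin2b at 0.311 had much lower levels. Within classes, some neighbours in level were apart in all 43 libraries, such as Gabra3 (5.08 to 11.3) and Gabra2 (1.25 to 4.84), or Grin1 (3.44 to 7.72) and Grin2d (1.29 to 2.74), while others, such as Gabrr1 and Gabrr2, overlapped.

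**Figure D1:**
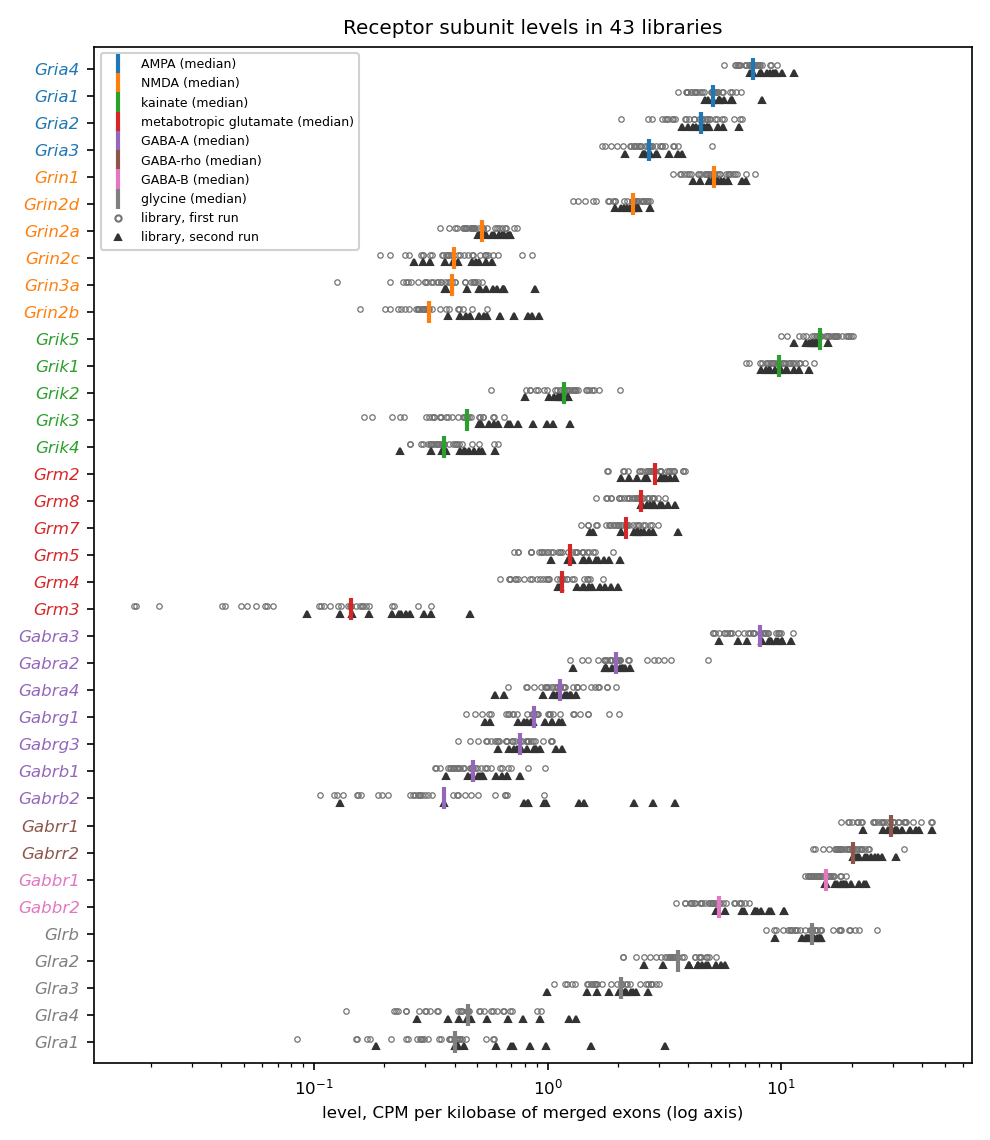
Level of each receptor subunit in CPM per kilobase of merged exons on a log axis, with 1 point for each of 43 libraries (open circles, the first run of columns, and filled triangles, the second run) and a bar at the median. Gabrr1 (29.4) and Gabrr2 (20.3) lie at the top, Grm3 (0.145) at the bottom, and Gabrb2, Glra1 and Grm3 spread the widest.

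The highest of the 43 libraries exceeded the lowest by 2.89-fold for the median member, and by the least, 1.82-fold, for Gabbr1. Gabrb2, Glra1 and Grm3, named here after their values were seen, varied by 32.9-, 37.7- and 27.3-fold. Gabrb2 ran from 0.677 to 22.3 CPM and Glra1 from 0.204 to 7.71 CPM, and both were highest in female control replicate 2 at 14 dpl, which was the highest library for 14 of the 37 genes. Grm3 ran from 0.0519 to 1.42 CPM, so that its lowest libraries were below the floor of 3 counts.

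Males at 7 dpl, the comparison with the most called genes among single days, had 7 called members. Gabra2, Gabrg1 and Gabrb1, which encode subunits of GABA-A receptors, Glrb and Glra3 of glycine receptors, and Grm5, the metabotropic receptor coupled to phospholipase C, rose with SCFA. Grin2d, an NMDA receptor subunit, fell. A gene was called at an adjusted p under 0.1 with no minimum fold, where p came from the quasi-likelihood test of edgeR and the adjustment (Benjamini-Hochberg) ran over 18197 genes. Of all genes tested, 22.2% were called in this comparison (13.1% higher and 9.1% lower), against 7 of 37 members, a share near that background. The median log2 fold change was 0.02 over the members and -0.02 over all genes.

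Several of these genes are neighbours. On GRCm38, Gabrg1 (chromosome 5, 70751047 to 70842617) and Gabra2 (70957597 to 71095849) lie on the minus strand, 115 kb apart. Gabra4 (71569749 to 71658308) lies 474 kb further, and its start overlaps that of Gabrb1 (71658113 to 72149037) by 196 bases on the other strand. Reads of that overlap cannot be assigned without strand, and no strand setting was given in the sources used here. Glrb (chromosome 3, 80843599 to 80913660) lies 40.8 kb from Gria2 (80681450 to 80802835), both on the minus strand, and Grin2d spans 45831883 to 45878378 on chromosome 7. The 250 bases before the start of 4 of the called genes are shown, from RefSeq on GRCm38.p6, to set the neighbours Gabrg1 and Gabra2 side by side with a glycine receptor gene and with the gene that fell. Letters run 5′ to 3′ on the strand of the gene, and capitals mark CpG dinucleotides.
Gabrg1: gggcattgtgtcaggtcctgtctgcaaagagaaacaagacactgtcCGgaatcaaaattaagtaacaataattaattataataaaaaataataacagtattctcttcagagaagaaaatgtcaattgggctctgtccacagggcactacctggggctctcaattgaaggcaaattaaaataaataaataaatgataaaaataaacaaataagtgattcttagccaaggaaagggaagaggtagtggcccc
Gabra2: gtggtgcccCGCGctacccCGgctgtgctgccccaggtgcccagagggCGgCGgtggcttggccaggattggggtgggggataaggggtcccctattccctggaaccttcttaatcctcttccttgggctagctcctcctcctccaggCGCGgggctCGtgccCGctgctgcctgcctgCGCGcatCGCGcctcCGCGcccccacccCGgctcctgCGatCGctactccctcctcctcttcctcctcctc
Glrb: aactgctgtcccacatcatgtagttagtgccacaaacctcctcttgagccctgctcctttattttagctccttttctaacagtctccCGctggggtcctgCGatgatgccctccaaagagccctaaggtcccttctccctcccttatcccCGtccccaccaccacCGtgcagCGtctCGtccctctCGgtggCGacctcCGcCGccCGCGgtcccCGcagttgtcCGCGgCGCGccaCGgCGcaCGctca
Grin2d: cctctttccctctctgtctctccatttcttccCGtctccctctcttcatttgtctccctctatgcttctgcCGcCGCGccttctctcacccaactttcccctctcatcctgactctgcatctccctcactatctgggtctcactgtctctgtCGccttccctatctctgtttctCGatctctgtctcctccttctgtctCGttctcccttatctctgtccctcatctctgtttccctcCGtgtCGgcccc

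These windows are Gabrg1, chr5:70842618-70842867, Gabra2, chr5:71095850-71096099, Glrb, chr3:80913661-80913910, and Grin2d, chr7:45866682-45866931, each on the minus strand, and that of Grin2d lies before the RefSeq start, within the longer GENCODE span of the gene. They hold 1, 18, 20 and 9 CpG, so that Gabrg1 and Gabra2, which rose together, have unlike windows. RefSeq windows were found for 28 of the 37 members, 35 windows in all. GGGCGG, the GC box, searched on both strands, occurred in 19 of the 35 (54.3%), against 32.7% of 32851 windows of all genes. The CRE palindrome TGACGTCA occurred in 0 of 35, against 1.55%, and TATAAA in 4 (11.4%), against 12.4%. The median CpG number was 9 in the windows of the members and 6 in those of all genes. A match describes letters in these windows only.

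Gabra2 stood at 13.3, 9.55 and 10.7 CPM in control replicates 1 to 3 of males at 7 dpl and at 25.8, 14.3, 37, 16.0 and 14.5 CPM in SCFA replicates 1 to 5. All 5 SCFA libraries were above all 3 controls, and replicates 1 and 3 were far above the other 3. Its log2 fold change was 1.03 ± 0.22 (SE, adjusted p = 0.00161).

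Gabrg1 stood at 4.13, 4.52 and 3.83 CPM in control and at 11.8, 5.36, 15.9, 5.89 and 7.67 CPM with SCFA, again without overlap and with replicates 1 and 3 on top. Its log2 fold change was 1.26 ± 0.31 (adjusted p = 0.00511). Glrb stood at 50.7, 47.6 and 44.1 CPM in control and at 84.0, 53.2, 120, 67.5 and 69.2 CPM with SCFA. The groups did not overlap, and the log2 fold change was 0.81 ± 0.20 (adjusted p = 0.00580).

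Grin2d stood at 17.8, 18.2 and 16.1 CPM in control and at 12.2, 13.0, 8.99, 16.2 and 13.0 CPM with SCFA. Replicate 4 reached the lowest control, and the other 4 SCFA libraries were below all controls. The log2 fold change was -0.53 ± 0.15 (adjusted p = 0.0142). Grm5 rose by 0.64 ± 0.21 on the log2 scale (adjusted p = 0.0334), Gabrb1 by 0.64 ± 0.23 (adjusted p = 0.0506) and Glra3 by 0.60 ± 0.25 (adjusted p = 0.0931). Over all 37 members, 6 were higher in every SCFA library than in every control and 1 was lower, where 9.17% and 8.63% of all genes tested separated in this way. Gabra4, the gene between Gabra2 and Gabrb1, had a log2 fold change of 0.40 ± 0.27 (adjusted p = 0.329).

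**Figure D2:**
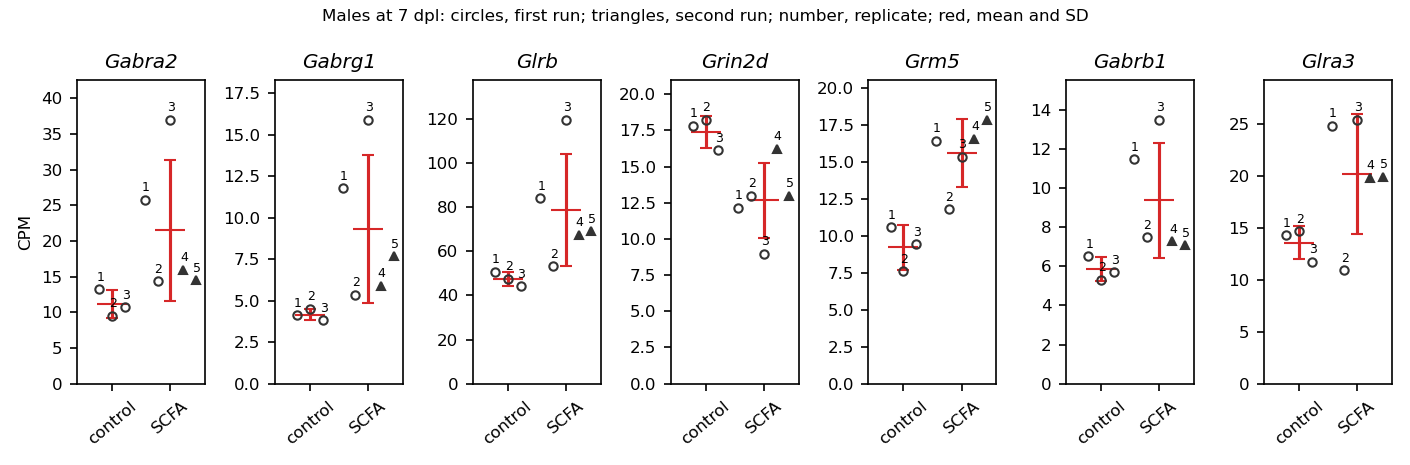
CPM of the 7 called members in males at 7 dpl, for 3 control and 5 SCFA libraries, with the replicate number beside each point, open circles for the first run of columns and filled triangles for the second, and the mean and SD in red. Replicates 1 and 3 of the SCFA group are the highest 2 libraries for Gabra2, Gabrg1, Glrb, Gabrb1 and Glra3, and replicate 3 is the lowest for Grin2d (8.99).

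SCFA replicates 1 and 3 carried much of these differences. Without both, an alternative chosen after the data were seen, which leaves 3 SCFA libraries, 0 of the 37 members and 582 of all genes were called. Gabra2 then had a log2 fold change of 0.53 (adjusted p = 0.179), Gabrg1 0.72 (adjusted p = 0.266), Glrb 0.50 (adjusted p = 0.231), Grm5 0.50 (adjusted p = 0.301) and Grin2d -0.40 (adjusted p = 0.222). Gabrb1 stood at 0.16 (adjusted p = 0.772) and Glra3 at 0.30 (adjusted p = 0.644). A fit of the same 3 SCFA libraries and 3 controls alone, with no term for the run, called 9 members and 3122 of 16322 genes. Grm5 (0.75, adjusted p = 0.0355), Gabra2 (0.43, adjusted p = 0.0948), Gabrg1 (0.61, adjusted p = 0.0784) and Glrb (0.43, adjusted p = 0.0460) were among them, but 2 of these SCFA libraries are of the second run and all controls are of the first, so that the effect of SCFA and the place in the table cannot be told apart in that fit. With 1 library left out at a time the count was 4 without control replicate 2, where 2489 genes were called in all. It was 11 without SCFA replicate 2, where 4858 genes were called. Both of these libraries were rich in myelin transcripts. Control replicate 3, the richest in them at 875 CPM, gave neither the lowest nor the highest count when left out. The part of myelin transcripts was not tested.

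In the same comparison, 4 of 7 Muller glia markers were called higher, with a median log2 fold change of 0.85, and none was at 0 CPM in any group. The summed markers ran from 4236 to 5378 CPM in controls and from 4812 to 9837 CPM with SCFA, with 8405 and 9837 CPM in replicates 1 and 3. Summed rod markers were 59066 and 48505 CPM in SCFA replicates 1 and 3, against 73284 to 76309 CPM in controls. SCFA replicates 2, 4 and 5 held 100612, 87490 and 76701 CPM of rod markers. Of 8 amacrine cell markers, 3 were higher and 1 lower, and of 8 microglia markers 2 were lower. Summed endothelium and pericyte markers were 169 to 184 CPM in controls and 232 to 287 CPM with SCFA. Pigment epithelium markers were 444 to 549 CPM in controls and 168 to 404 CPM with SCFA. These sums did not overlap between the groups, SCFA replicates 2, 4 and 5 included, while those of the other marker lists did. The part of these markers and of the mitochondrial share in the result was not tested.

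Fold changes of the members followed the GC content of their transcripts. In males at 7 dpl the Spearman correlation across genes between log2 fold change and GC content was -0.77 over the 37 members and -0.41 over 18180 genes. These values share the same libraries, and genes are not replicates. The 18 members with less GC than the median of 47.2% had a median log2 fold change of 0.41, and the 18 with more had -0.23. Glra3 (35.2% GC), Gabrg1 (35.3%) and Gria2 (36.8%) are at one end and Grin1 (59.4%), Grm4 (61.7%), Grik5 (61.7%), Grin2c (62.1%) and Grin2d (65.0%) at the other. In a fit that removed the trend with GC and length within each library, 3 of the 7 calls remained: Gabra2 at 0.65 (adjusted p = 0.0132), Gabrg1 at 0.75 (adjusted p = 0.0668) and Glrb at 0.50 (adjusted p = 0.0618). Grin2d went to -0.20 (adjusted p = 0.448), Grm5 to 0.41 (adjusted p = 0.188), Gabrb1 to 0.33 (adjusted p = 0.293) and Glra3 to 0.11 (adjusted p = 0.833).

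**Figure D3:**
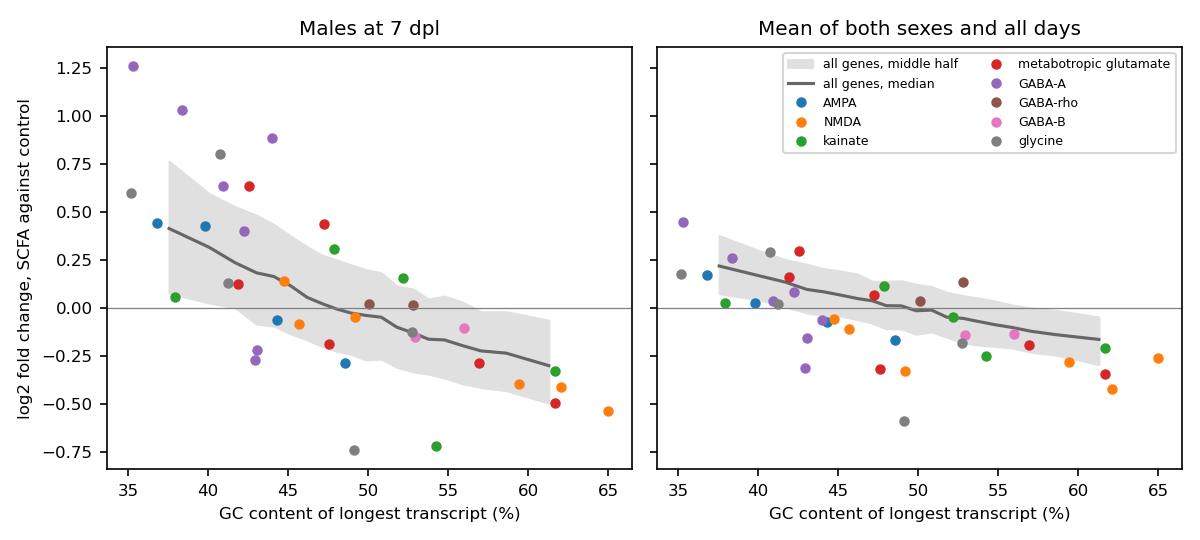
Log2 fold change of SCFA against control (y axis) by GC content of the longest transcript (x axis, %), for the 37 members as points coloured by class, with the median and the middle 50% of all genes tested in grey. Both panels, males at 7 dpl and the mean of both sexes and all days, slope down, with members of low GC above 0 and members of high GC, Grin2d (65.0%) last, below 0.

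In males at 3 dpl, edgeR called 0 of the 37 members, where 0.022% of all genes were called, and DESeq2 called 0. At an unadjusted p under 0.05 there were 3. Here and below, counts at that p use a looser limit than the calls. The shares of all genes called are no background for them. No share of all genes at that p is given, so these counts do not tell whether members differ from other genes. The smallest p belonged to a pair of NMDA receptor genes. Grin2c stood at 3.92, 2.94, 2.92 and 2.57 CPM in control and at 2.21, 1.36 and 2.00 CPM with SCFA, without overlap, for a log2 fold change of -0.74 ± 0.31 (adjusted p = 0.379). Grin1 stood at 46.0, 53.1, 65.6 and 57.2 CPM in control and at 38.5, 48.8 and 40.5 CPM with SCFA, for -0.42 ± 0.18 (adjusted p = 0.391), and its groups overlapped.

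In males at 14 dpl only Gria2 was called, the AMPA subunit that keeps calcium out of the channel. Of all genes, 7.13% were called, and 3.28% were called higher. Gria2 stood at 49.4, 43.4 and 60.8 CPM in control and at 106, 71.0 and 77.0 CPM with SCFA. The groups did not overlap, and the log2 fold change was 0.72 ± 0.23 (adjusted p = 0.0805). The adjusted p rose to 0.414 without SCFA replicate 1, 0.185 without SCFA replicate 3, 0.205 without control replicate 1 and 0.278 without control replicate 2, and to 0.164, at a log2 fold change of 0.33, with the GC and length trend removed. Without SCFA replicate 2 the count of called members was 4, where 2081 genes were called in all. The members' median was -0.22 in this comparison, against 0.01 for all genes. Of the 37, 11 were lower in every SCFA library than in every control and 4 were higher, where 17.8% and 15.7% of all genes separated so. Summed amacrine cell markers were 1149 to 1253 CPM in control and 895 to 1017 CPM with SCFA. Ganglion cell markers were 1158 to 1436 and 815 to 1097 CPM, and horizontal cell markers 174 to 190 and 153 to 165 CPM. Microglia and pigment epithelium markers were also lower without overlap. No summed list was higher without overlap, and the part of these markers was not tested.

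In females at 3 dpl only Grin2d was called, and it was lower, as in males at 7 dpl. Of all genes, 8.11% were called, and 3.33% were called lower. Grin2d stood at 13.0, 17.3 and 15.3 CPM in control and at 8.58, 9.67, 10.8, 13.7 and 15 CPM with SCFA. The groups overlapped, since SCFA replicates 4 and 5 were within the range of the controls, and the log2 fold change was -0.47 ± 0.15 (adjusted p = 0.0717). The adjusted p rose to 0.115 to 0.237 without SCFA replicate 1, 2 or 3 or control replicate 2 or 3, and to 0.246, at -0.30, with the GC and length trend removed. Without SCFA replicate 4 the count was 3, where 2410 genes were called in all. In the same comparison 7 of 7 lens markers, 3 of 7 Muller glia markers and 3 of 6 pigment epithelium markers were higher, and their part was not tested.

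In females at 7 dpl 0 members were called by edgeR and 0 by DESeq2, where edgeR called 0.643% of all genes. At the looser limit of an unadjusted p under 0.05 there were 7 members, with no share of all genes at that limit to set beside them. Glrb stood at 49.9, 65.2 and 40.2 CPM in control and at 90.4, 62.9, 82.2 and 56.9 CPM with SCFA, for a log2 fold change of 0.54 ± 0.21 (adjusted p = 0.196). Glra3 stood at 12.1, 19.2 and 9.77 CPM in control and at 25.7, 15.7, 26.9 and 15 CPM with SCFA, for 0.62 ± 0.25 (adjusted p = 0.228). Groups overlapped for both glycine receptor genes, and control replicate 2, with the uncertain sex label, was the highest control for both. Without control replicate 3, 2 members were called, both lower with SCFA, where 2051 genes were called in all.

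In females at 14 dpl 0 members were called by edgeR and 0 by DESeq2, where edgeR called 0% of all genes. At the looser limit of an unadjusted p under 0.05 there was 1 member. Glra1 stood at 0.369, 7.71 and 2.03 CPM in control and at 0.204, 1.43, 0.931 and 1.69 CPM with SCFA, for -1.17 ± 0.54 (adjusted p = 1). Control replicates 2 and 3, both of the second run of columns, were above all SCFA libraries, and control replicate 1, of the first run, was below 3 of 4. The sign of Glra1 turned to 0.10 without control replicate 2 and to 1.22 in the first run alone. Grin2c had a log2 fold change of -0.55 ± 0.32 (adjusted p = 1).

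Averaged over both sexes and all days, which uses the same libraries and controls as the 6 single comparisons, SCFA was tied to small changes in 16 members, 5 higher and 11 lower. Of all genes, 34.7% were called (17.7% higher and 17% lower). The members' median was -0.06, against 0.00 for all genes. By class, 4 of 6 NMDA genes were lower: Grin2d (-0.26 ± 0.06, adjusted p = 0.00273), Grin1 (-0.28 ± 0.07, adjusted p = 0.00315), Grin2c (-0.42) and Grin3a (-0.33). Grin2d had a median of 16.2 CPM in 19 control libraries, from 13.0 to 18.2, and of 14.4 CPM in 24 SCFA libraries, from 8.58 to 17.0. Grin1 had a median of 57.5 CPM in control, from 33.4 to 74.9, and of 47.4 CPM with SCFA, from 35.8 to 61.5. Control and SCFA ranges overlapped for both genes.

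The AMPA gene Gria1 (-0.17) and the kainate gene Grik5 (-0.20, but 0.00302 with the GC and length trend removed) were also lower. Among metabotropic glutamate receptors, Grm4 (-0.34 ± 0.10, adjusted p = 0.00677) and Grm2 (-0.19) were lower, and Grm5 (0.30) and Grm8 (0.17) were higher. Grm4 had a median of 7.58 CPM in control, from 4.12 to 11.9, and of 6.32 CPM with SCFA, from 3.73 to 9.27. Of the GABA-A genes, Gabrg1 (0.45) and Gabra2 (0.26) were higher and Gabrg3 (-0.31 ± 0.09, adjusted p = 0.00646) was lower. Gabrg3 had a median of 10.1 CPM in control, from 4.92 to 13.8, and of 8.55 CPM with SCFA, from 5.55 to 11.4. Gabbr1 (-0.14) and Glra4 (-0.59) were lower, and Glrb (0.29) was higher. No GABA-rho gene was called.

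The calls moved with the choice of libraries and with the GC correction. Within the 31 libraries of the first run, 13 members were called, 11 higher and only Grin2d (-0.33, adjusted p = 0.00372) and Grik5 (-0.23, adjusted p = 0.0386) lower, and 7 were shared with the 16, where 5500 of 19304 genes were called. The 11 higher genes were Grik1, Grm5 (0.51, adjusted p = 0.000284), Grm7, Grm8, Gabra2, Gabrb2 (0.76, adjusted p = 0.0219), Gabrg1, Gabrr2, Glra1, Glra3 and Glrb. With the GC and length trend removed, 7 members were called, 1 higher and 6 lower, 5 of them shared with the 16, with 4825 genes called in all. Grm5 (0.20, adjusted p = 0.0844), Gabrg3 (-0.41, adjusted p = 0.00214), Grin3a (-0.32), Glra4 (-0.63) and Gria1 (-0.15) kept their calls, while Grin2d (-0.02, adjusted p = 0.905) and Grin1 (-0.10, adjusted p = 0.317) lost theirs. Grm5 alone was called higher in the full fit and in both of these. In the mean comparison the correlation of log2 fold change with GC content was -0.70 over the 37 members and -0.44 over all genes, and with the trend removed it was -0.12 over the members, and -0.32 in males at 7 dpl. Of marker genes, 5 of 8 ganglion cell and 3 of 8 microglia markers were lower, and 4 of 7 Muller glia and 5 of 7 lens markers were higher, whose part was not tested.

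**Figure D4:**
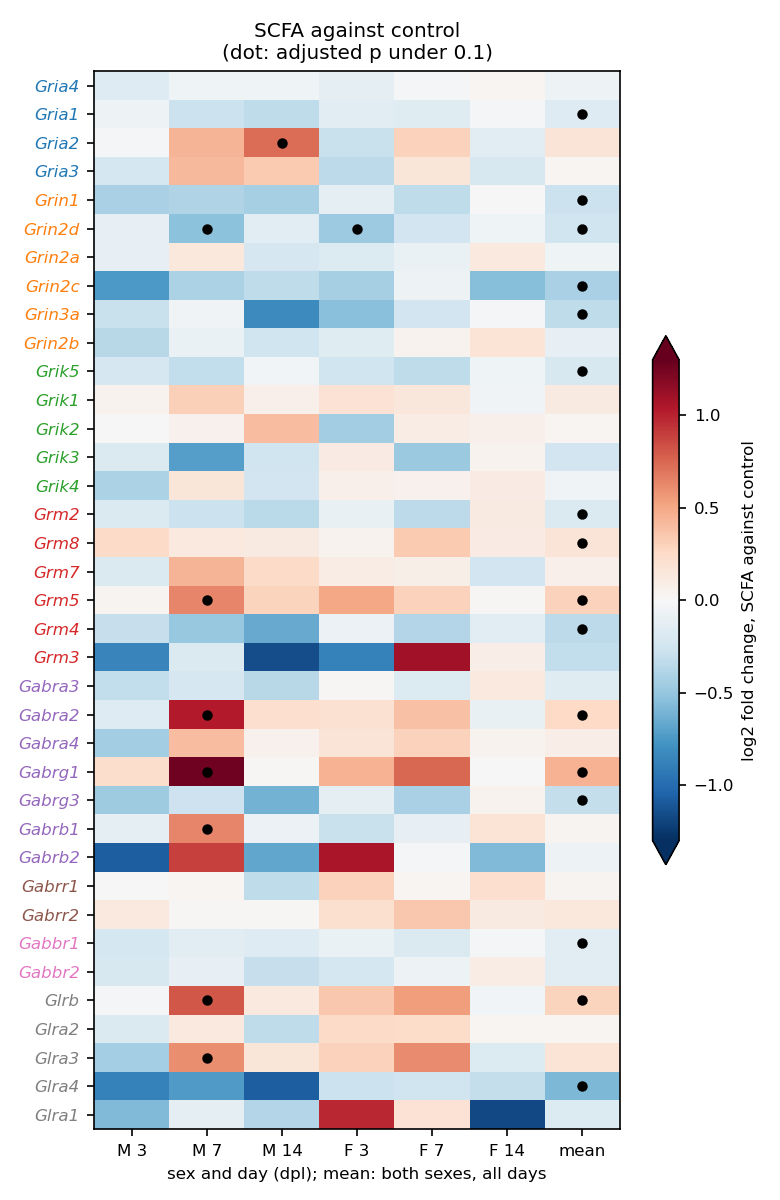
Log2 fold change of SCFA against control for each member (by class) in males (M) and females (F) at 3, 7 and 14 dpl and for the mean of all, with a dot at an adjusted p under 0.1 in edgeR. Dots stand at 7 members in males at 7 dpl, at Gria2 in males at 14 dpl, at Grin2d in females at 3 dpl and at 16 members in the mean.

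The design also asks whether the sexes responded differently. For the difference between males and females in the SCFA response, edgeR called 0 members at 3, 7 and 14 dpl, with 2 at an unadjusted p under 0.05 each time, DESeq2 called 0, and 0% of all genes were called. At 3 dpl the smallest p was that of Gabrb2 (-2.14, adjusted p = 0.326). At 7 dpl the response of Gabrb1 was 0.74 ± 0.32 greater in males on the log2 scale (adjusted p = 0.62) and that of Gabra2 was 0.65 ± 0.31 greater. At 14 dpl the response of Gria2 was 0.86 ± 0.32 greater in males (adjusted p = 0.485). The calls in males at 7 and 14 dpl and in females at 3 dpl are therefore not shown to differ between the sexes.

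Between males and females over all groups, only Grm7, a presynaptic receptor that damps transmitter release, was called. Of all genes, 2.31% were called, and 1.41% were called lower in males. Grm7 was lower in males, with a median of 11.8 CPM in 21 male libraries, from 8.17 to 15.9, and of 13.8 CPM in 22 female libraries, from 9.25 to 21.3. The ranges overlapped widely, and the log2 fold change was -0.27 ± 0.08 (adjusted p = 0.0794). The call was lost when any 1 of 19 libraries was left out and with the uncertain female library left out, and 2 members were called without any 1 of 10 others. In 28 of the 37 members the difference was below 0, with a median of -0.06, against 9023 of all 18197 genes and a median of 0.00135. Its Spearman correlation with GC content was 0.48 over the members and 0.27 over all genes.

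Between days, averaged over sex and treatment, edgeR and DESeq2 each called 0 members. From 3 to 7 dpl 1 member, Grik5 (0.16), was at an unadjusted p under 0.05, and 0.0055% of all genes were called. From 7 to 14 dpl 4 members were at that p, and 0.0604% of all genes were called. The smallest p values were those of Grin2b, an NMDA receptor subunit (0.39 ± 0.14, adjusted p = 0.365), and Gabbr2 (0.24 ± 0.10, adjusted p = 0.420).

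The smallest adjusted p-values of members belonged to the place of a library in the table. Between the second and the first run of columns, 23 members were called, 22 higher in the second run and Gabra2 (-0.30, adjusted p = 0.0353) lower, where 52% of all genes were called, 25.7% higher and 26.4% lower. Gabra2 was not called with the GC and length trend removed (-0.18, adjusted p = 0.117) or without male SCFA replicates 1 and 3 of 7 dpl (-0.16, adjusted p = 0.199). The members' median was 0.28, against -0.01 for all genes. Grin2b had a median of 7.36 CPM in the first run, from 3.92 to 13.7, and of 13.5 CPM in the second, from 9.30 to 22.8, for a log2 fold change of 0.95 ± 0.15 (adjusted p = 2.76e-06). Gabbr2 had a median of 33.8 CPM, from 23.8 to 48.8, and of 52.3 CPM, from 35.2 to 68.7, for 0.68 ± 0.11 (adjusted p = 4.24e-06). Both genes overlapped between the runs.

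Gabbr1 had a median of 112 CPM in the first run, from 98.2 to 147, and of 143 CPM in the second, from 119 to 179, for 0.39 ± 0.07 (adjusted p = 1.01e-05). Grik3 had a median of 3.49 CPM, from 1.48 to 5.82, and of 6.12 CPM, from 4.57 to 11.2, for 0.998 ± 0.18 (adjusted p = 1.95e-05). The ranges of these genes overlapped as well. By class, 2 of 4 AMPA genes (Gria4 0.28 and Gria1 0.31) and 5 of 6 NMDA genes (Grin2b, Grin3a 0.77, Grin2a 0.31, Grin1 0.24 and Grin2d 0.18) were higher, of which Grin1 went to -0.0165 and Grin2d to -0.0829 with the GC and length trend removed. So were Grik3 alone of 5 kainate genes, 4 of 6 metabotropic glutamate receptor genes (Grm3 1.01, Grm4 0.67, Grm8 0.30 and Grm5 0.29), and both GABA-rho (Gabrr2 0.31 and Gabrr1 0.28) and both GABA-B genes. Of the GABA-A genes, Gabrb2 (1.48), Gabrg3 (0.35) and Gabra3 (0.34) were higher, and of the glycine receptor genes Glra1 (0.83), Glra4 (0.56) and Glra2 (0.32). In the same comparison 4 of 6 pigment epithelium and 4 of 7 myelin markers were lower, and the mitochondrial share was 4.71% to 14.8% in the first run and 2.50% to 4.57% in the second. Their part was not tested, and what else the place in the table stands for is not given in the sources used here.

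**Figure D5:**
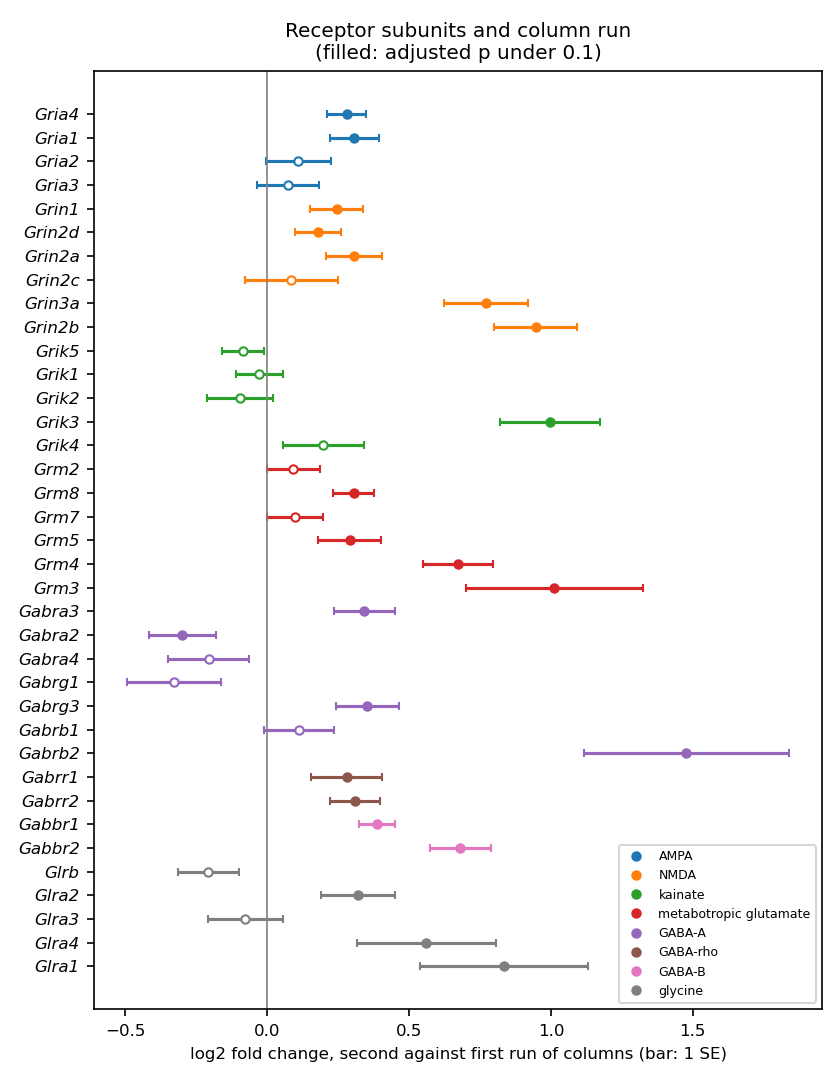
Log2 fold change of the second against the first run of columns (x axis) for each member by class, with 1 SE to each side and filled points at an adjusted p under 0.1. Of 37 points, 22 are filled to the right of 0, with Gabrb2 (1.48) farthest, and Gabra2 (-0.30) is filled to the left.

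Where a comparison sets libraries of the second run against libraries of the first, the place in the table and the treatment cannot be told apart. Among females at 14 dpl, the libraries the study lists for this comparison put controls of the second run against SCFA libraries of the first. With these, 2962 of 16742 genes were called, and 10 members were lower with SCFA: Grin1, Grin2b, Grin3a, Grik3, Grm4, Gabrb2, Gabrg3, Gabbr1, Gabbr2 and Glra1. In the fit with all libraries and the run as a term, 0 were called. The values of Gabrb2, named after they were seen, differed by group. It stood at 0.773 and 1.72 CPM in male control replicates 1 and 2 at 3 dpl, of the first run, and at 14.9 and 18.0 CPM in replicates 3 and 4, of the second run. In females with SCFA at 7 dpl the order was the other way, with 1.90, 1.69 and 1.77 CPM in replicates 1 to 3, of the first run, and 0.820 CPM in replicate 4, of the second.

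Other genes of these synapses, a list of 60 transporters, synthesis enzymes, scaffolds and auxiliary subunits, gave the following counts in the same fits. In males at 7 dpl 14 were higher and 1 lower, where 13.1% and 9.1% of all genes were, led by Glul, glutamine synthetase of Muller glia (1.03, adjusted p = 0.000563), Cacng4, an AMPA receptor auxiliary subunit (0.73, adjusted p = 0.00213), and Kctd12b, of a family of GABA-B receptor auxiliary subunits (1.10, adjusted p = 0.00246). In males at 14 dpl 1 was higher and 3 lower, where 7.13% of all genes were called in either direction, and the lower genes were Shank3, a postsynaptic scaffold (-0.75, adjusted p = 0.0352), Cacng5 (-0.69, adjusted p = 0.0722) and Slc17a6, a vesicular glutamate transporter (-0.73, adjusted p = 0.0992). In females at 3 dpl 3 were higher and 2 lower, where 8.11% of all genes were called, led by Kctd12b (1.09, adjusted p = 0.0177), Glul (0.65, adjusted p = 0.0470) and Shisa7, a GABA-A receptor auxiliary subunit (-0.50, adjusted p = 0.0722).

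In the mean over all groups 13 of the 60 were higher and 17 lower with SCFA, where 17.7% and 17% of all genes were, led by Shank3 (-0.42, adjusted p = 2.27e-05), Kctd12b (0.55, adjusted p = 0.000142) and Lrrtm4, a synaptic adhesion protein (0.45, adjusted p = 0.000749). Between the runs of columns 32 were higher and 6 lower in the second run, where 25.7% and 26.4% of all genes were, led by Slc6a9, the glycine transporter of amacrine cells (1.21, adjusted p = 2.87e-07), and Lhfpl4, which helps to cluster GABA-A receptors (0.68, adjusted p = 3.01e-07).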

How the data were processed

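RNA was sequenced from 43 libraries of pooled lasered retinas. The authors deposited raw counts of reads per gene, without normalization. The submitters' processing notes name mm10 and DESeq2, and the aligner, counter, annotation and strand setting are not given in the sources used here. Groups came from sample titles. Genes were named by identifier in GENCODE M21.

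Counts were fitted with edgeR 4.0.16 in R 4.3.3 (TMM, filterByExpr, glmQLFit and glmQLFTest) over all libraries, with the 12 groups and the run of columns as terms, and 14 comparisons were tested. A call was an adjusted p under 0.1. P-values measure the spread between these libraries only, and floors cover counting error only. Alternatives are given in the closing section, DESeq2 1.42.0 among them. Figures used matplotlib 3.10.9. On simulated counts for males at 7 dpl, edgeR recovered 80.5% of 200 genes changed 2-fold among 18197, and 8.52% of 176 calls were false, while DESeq2 recovered 83.5%, with 18.5% of 205 calls false. Beyond library size and column run, the simulation held no shifts shared by a whole library, such as those of SCFA replicates 1 and 3. These shares therefore do not measure false calls in the real data.

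The members and lists were chosen with earlier results of these data known. Called members are named with their fold changes, with library values for at most 4 per comparison by smallest adjusted p, or, where none was called, 2 by smallest p. Partner genes are given as counts with at most 3 names, and 1 further result is not reported here. Grik1 is also in the list of bipolar cell markers, and several amacrine, ganglion and Muller glia markers are in the list of partner genes.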

Additional observations from a re-analysis of the deposited data

Results flagged for a closer look

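Within groups of 4 or 5 libraries, 1 library lay far from the others for 10 of 185 sets of values of a member, by Dixon's 95% limit on the gap to the nearest library. Chance alone gives about 1 in 20, which is 9.25 here. In females at 7 dpl, SCFA replicate 3 was high for Gria3 (35.8 CPM, against 26.8 to 27.0 in the others) and for Grik2 (18.0 CPM, against 15.3 to 15.6). In males at 7 dpl, SCFA replicate 2 was low for Grm7 (10.5 CPM, against 14.1 to 15.2).

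In females at 3 dpl, SCFA replicate 3 was high for Gabra2 (24.1 CPM, against 13.5 to 15.2), SCFA replicate 2, the library rich in lens transcripts, was low for Gabrb1 (4.59 CPM, against 6.59 to 7.00), and SCFA replicate 1 was high for Glra1 (1.41 CPM, against 0.966 to 1.01). In males at 3 dpl, control replicate 1 was low for Gabrg1 (4.41 CPM, against 6.24 to 6.45). In females at 14 dpl, SCFA replicate 1 was high for Gabrg1 (14.4 CPM, against 6.85 to 8.04) and Glrb (91.7 CPM, against 60.5 to 64.7), and SCFA replicate 4 was high for Gabrr2 (50.9 CPM, against 46.1 to 46.8). The cause of these values was not tested.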

How the results depend on the processing

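With a log2 fold change beyond 1 also required, the count of called members went to 2 in males at 7 dpl (7 without it), 0 in males at 14 dpl (1), 0 in females at 3 dpl (1), 0 in the mean over all groups (16), 0 between the sexes (1) and 2 between the runs of columns (23). Genes called in all were then 614, 195, 381, 128, 13 and 873, in the same order. At an adjusted p under 0.05 the count of called members was 0 in males at 14 dpl, females at 3 dpl and between the sexes, with 305, 615 and 72 genes called. With no filter on low counts it was 1 in males at 3 dpl, 12 at 7 dpl and 2 at 14 dpl, 3 in females at 7 dpl, 1 from 3 to 7 dpl, 3 from 7 to 14 dpl, 3 between the sexes, and 2 and 1 for the difference in response between the sexes at 3 and 14 dpl. In the same order, 296, 3451, 1733, 751, 358, 498, 909, 969 and 222 genes were called in all. With the filter these numbers were 4, 4047, 1298, 117, 1, 11, 420, 0 and 0. Without the term for the run the count of called members was 0 in males at 14 dpl, females at 3 dpl and between the sexes, with 205, 91 and 69 genes called. In the first run only it was 0, 5 and 0, with 536, 3260 and 250 genes called. With the GC and length trend removed it was 3 in males at 7 dpl, 2 at 14 dpl and 7 in the mean, with 2952, 854 and 4825 genes called. DESeq2 gave 4 in males at 14 dpl (1958 genes called) and 2 between the sexes (1033 genes), where RLE size factors gave 2 (478 genes). The libraries the study lists, fitted alone with no term for the run, gave 9 in males at 14 dpl and 10 in females at 14 dpl. In males at 14 dpl these are all libraries of both groups, so that only the fit differed and not the libraries compared. There 3952 genes were called in all, against 1298 in the fit with all libraries, and in females at 14 dpl 2962 were, against 0.

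Without male SCFA replicates 1 and 3 of 7 dpl the count was 0 in males at 7 dpl, 2 at 14 dpl and 4 between the sexes, with 582, 1741 and 1365 genes called in all. Without female SCFA replicate 2 of 3 dpl as well it was 0, 4 and 4, with 0 in females at 3 dpl, and 736, 2206, 1348 and 133 genes were called. These alternatives were chosen after the data were seen. Without female control replicate 2 of 7 dpl the count was 3 in males at 14 dpl and 0 between the sexes, with 2129 and 350 genes called. With 1 library left out at a time, the counts ran from 0 to 0 in males at 3 dpl, 4 to 11 at 7 dpl, 0 to 4 at 14 dpl, 0 to 3 in females at 3 dpl, 0 to 2 at 7 dpl and 0 to 0 at 14 dpl, 15 to 18 in the mean, 0 to 2 between the sexes and 20 to 25 between the runs, and stayed at 0 between days and for the differences in response between the sexes. Genes called in all ran from 2161 to 4858 in males at 7 dpl and 0 to 2081 at 14 dpl. They ran from 11 to 2410 in females at 3 dpl, 0 to 2051 at 7 dpl and 81 to 878 between the sexes. The median level of a member was 1.95 CPM per kilobase of merged exons and 2.6 per kilobase of the longest transcript.

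Replicate numbers are shared by the groups, and deviations of same-numbered libraries correlated from -0.41 to 0.48. Their mean was 0.12 in females at 3 dpl and 0.18 at 14 dpl, against -0.03 and -0.06 for libraries of other numbers. In males at 14 dpl it was -0.04, against 0.02. With 3 pairs for each sex and day, these values cannot tell whether the numbers pair the libraries. With the replicate block the count was 3 in males at 14 dpl, 2 in females at 3 dpl, 2 between the sexes and 14 between the runs, with 1723, 2093, 638 and 4960 genes called. Grin2d between the runs turned to -0.00966 there. Other changes of sign were Glra1 in females at 14 dpl, at 1.22 in the first run only and 0.10 to -1.78 with 1 library left out, above 0 only without control replicate 2, Grin2c there, at 0.0277 in the first run only, and, with the GC trend removed, Grik5 in the mean, at 0.00302, and between the runs Grin1 at -0.0165 and Grin2d at -0.0829. For named members, 2488 results under alternatives kept direction and call, 146 lost the call, 9 gained it and 7 changed sign. The cause of these changes was not tested. Grm3, Gabrb2, Glra1 and Glra4 had few counts per library, which limits their fold changes.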

Other observations

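In the fit with all libraries, Gabrr1 and Gabrr2, the GABA-rho genes, were called in none of the treatment, day or sex comparisons, whereas some alternatives called Gabrr2 in the mean over all groups (in the first run only, with the replicate block and without female control replicate 2 of 7 dpl) and Gabrr1 in males at 14 dpl (with the libraries the study lists). Group means of Gabrr1 ran from 58.9 ± 14.6 CPM (SD, n = 4) in male controls at 3 dpl to 80.9 ± 13.2 CPM (n = 5) in female SCFA libraries at 3 dpl, and those of Gabrr2 from 37.9 ± 1.99 CPM (n = 3) in female controls at 3 dpl to 51.6 ± 13.1 CPM (n = 4) in female SCFA libraries at 7 dpl. Of the 43 libraries, 23 were the highest or the lowest for at least 1 member. Female control replicate 2 at 14 dpl was the highest of the 43 for 14 members, male SCFA replicate 3 at 7 dpl was the highest for 7 and the lowest for 4, and female control replicate 1 at 14 dpl and female control replicate 3 at 7 dpl were the lowest for 6 each. The 12 libraries of the second run of columns were the highest for 17 members and the lowest for 3.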
